A study of Mus musculus with 44 samples.

Results

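The cytosolic ribosomal protein genes of the mouse were examined in the dorsal hippocampus of wild-type (WT) mice and of mice homozygous for the Kdm5b ΔARID allele, before and after contextual fear conditioning. Members were all protein-coding genes of the count tables whose symbol has the form Rpl or Rps followed by a number and at most 1 letter, together with Rplp0, Rplp1, Rplp2 and Rpsa. This rule took 81 of the 27179 genes counted, 31 of the small subunit and 50 of the large subunit. A further pair of genes, Rps4l and Rpl6l, carries symbols of this form but is annotated as pseudogenic and is no member. Rps4l was given as a marker of the group and is therefore reported beside the members, and Rps3a1, Fau and Rack1 lie outside the symbol rule.

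The libraries came from 36 mice, 1 library per mouse, in 6 groups of 6 with 3 mice labelled male and 3 labelled female. WT and ΔARID (genotype Kdm5bDARID/DARID, called mutant here) mice were killed from the home cage (0 h) or at 1 h or 3 h after training with 3 foot shocks. All were 7 to 8 weeks old and of the F2 generation of a cross of C57BL/6J, carrying the allele, with 129S2/Sv. For genes linked to Kdm5b on chromosome 1, effects of the allele and of the strain sequence around it cannot be told apart here. In the allele exons 2 to 4 are deleted, so that the JmjN domain of KDM5B is truncated and the ARID domain is lost. Polyadenylated RNA was sequenced, and the values used are raw counts of reads per gene.

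Each cytosolic ribosome holds a small subunit, which reads the messenger RNA, and a large subunit, which joins the amino acids, and both are built from ribosomal RNA and 1 copy of most ribosomal proteins. The mRNAs of these proteins share a pyrimidine tract at their 5′ end, the TOP motif, through which mTOR signalling controls their translation, and in neurons they are found in dendrites and axons as well as in the soma. Protein synthesis in the hours after training is required for long-term memory, and KDM5B is a demethylase of histone H3 lysine 4 trimethylation at active promoters. The comparisons below ask whether the ribosomal protein mRNAs differed between genotypes at each time, whether they differed between trained and naive mice of a genotype, and whether these responses differed between genotypes.

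Library totals ran from 40274435 to 107000233 counts with a median of 66549999.5, and the WT libraries at 3 h were the deepest group (70992683 to 107000233 counts). The sex shown by the Xist and Y-linked counts differed from the label in 2 libraries, WT 1 h male 1 and mutant 3 h female 2, which stayed under their labels. Kdm5b itself was read at 81.5 to 88.8 CPM (counts scaled to a common library size with TMM factors) in naive WT mice and between 75.6 and 86.8 CPM in naive mutants. The log2 difference of Kdm5b over the 3 time points was −0.083 (standard error 0.023, adjusted p = 0.069 in edgeR), and the exons outside the deletion are counted too. Markers of neurons, pyramidal cells, dentate granule cells and glia were present in every library. The summed level of 5 choroid plexus markers ran from 42.3 to 7915 CPM in WT mice and from 51.9 to 3599 CPM in mutants, both at 3 h. All 5 of these markers had an unadjusted p under 0.05 for lower levels in mutants over the 3 time points, with a median log2 difference of −1.81, and none passed adjustment.

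The members took between 0.382% and 0.499% of all counts, with a median over the 36 libraries of 0.422%. In WT the share was 0.436% ± 0.0103 (SD, n = 6) at 0 h, 0.419% ± 0.0261 at 1 h and 0.415% ± 0.00929 at 3 h. In mutants it was 0.439% ± 0.0356 at 0 h, 0.433% ± 0.0289 at 1 h and 0.408% ± 0.0152 at 3 h. Mice with the highest share (0.499%) and the lowest (0.382%) were mutant 0 h male 1 and WT 1 h male 3, and every pair of groups overlapped. The small subunit members took 0.192% and the large subunit members 0.233% of counts on average. A total of 48.0% of the members' counts fell on 10 genes.

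Levels differed between members by several orders of magnitude. The median level over 36 libraries was at least 100 CPM in 12 members, between 10 and 100 CPM in 37, between 1 and 10 CPM in 27 and under 1 CPM in 5. Rpl4 was the highest with a median of 316 CPM (range 293 to 349 CPM), followed by Rplp1, a protein of the flexible stalk that recruits elongation factors, with 264.8 CPM, and Rps3, at the mRNA entry channel, with 234.9 CPM. Per kilobase of a GENCODE transcript the order was led by Rplp1 with 531, Rps15 with 396 and Rps14 with 316 CPM per kb. Of the other stalk proteins, Rplp2 had 106 and Rplp0 had 81.0 CPM per kb. At the other end, Rps6, the substrate of S6 kinase, had 9.30 CPM per kb. Rpl5 and Rpl11, which bind the 5S ribosomal RNA and can hold back Mdm2, had 2.01 and 7.76 CPM per kb.

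Several members were read at a few CPM or less. Rps27a, which is made as a fusion with ubiquitin, had a median of 2.20 CPM and Rps27 had 2.30 CPM. Rpl38, a protein studied for its effect on the translation of Hox mRNAs, had 1.27 CPM, and Rps29 had 1.18 CPM. Rpl39, a small protein of the peptide exit tunnel, had 0 to 7 counts per library and a median of 0.0325 CPM. In contrast, Rpl22 had 90.6 CPM, Rps25 had 89.8 CPM, Rpsa had 179 CPM and Rpl10a had 8.96 CPM.

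Most of these genes have processed pseudogenes, which are copies of the mRNA elsewhere in the genome, and 62 members have at least 1 named in the annotation. Sharing of sequence was measured as the percent of 100-base windows of a member's GENCODE transcript that occur unaltered in a transcript of another gene. More than 50% of windows were shared in 35 members, whose median level was 8.44 CPM, and the median level of the other members was 51.7 CPM. The share was 98.4% for Rps27, 91.1% for Rpl5, 88.9% for Rps12 and 83.6% for Rps6, against 5.14% for Rpl4, 30.0% for Rplp1 and 0% for Rps3. Over the 81 members, Spearman's rho between level per kb and shared windows was −0.31, a description across genes that are not independent replicates. Rpl39 with 1.75% and Rps29 with 24.7% of windows shared were low without a high share, and Rps2 with 64.7% had 136 CPM. How reads that match several places were counted is not given in the sources used here, and the part of this step in the levels was not tested.

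**Figure D1:**
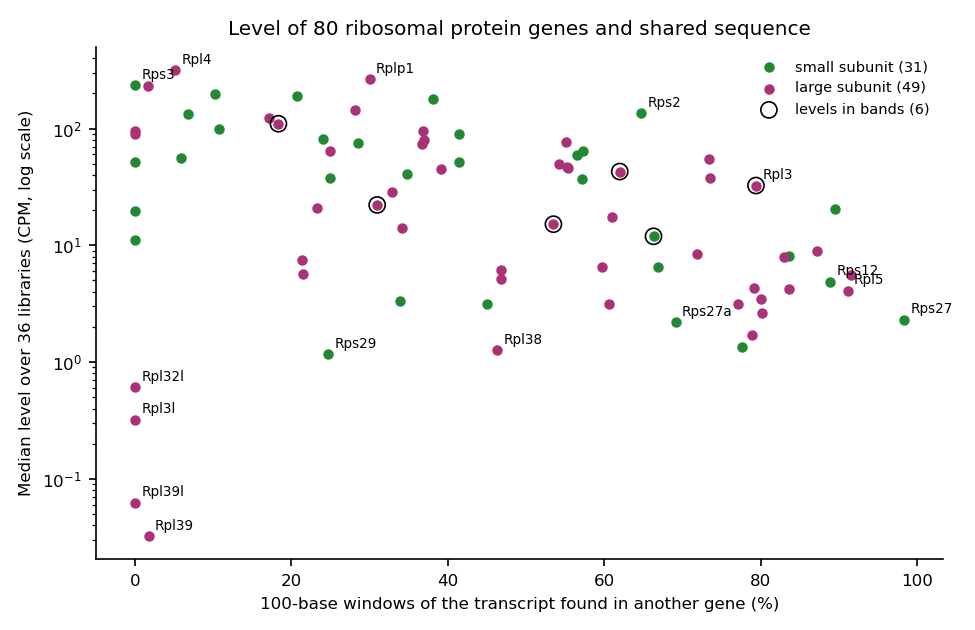
Median level over 36 libraries (CPM, log axis) against the percent of 100-base transcript windows that occur in another gene, for 80 members (Rpl10l, at 0 counts, cannot be placed on the log axis); points are genes, green for the small and purple for the large subunit, and rings mark 6 members whose levels fell in separate bands. Members with over 50% of windows shared lie mostly lower, while Rpl39 (1.75% shared, 0.0325 CPM) and Rps2 (64.7%, 136 CPM) lie apart from that order.

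The paralogs that are known from other tissues were at or near the limit of counting, with 1 exception. Rpl10l, a testis gene, had 0 counts in all 36 libraries, where a count of 0 allows up to 3 reads per library for counting error alone, whereas its X-linked parent Rpl10 had 5.55 CPM. Rpl39l, also a testis gene, had 0 counts in 8 libraries and a median of 0.0625 CPM. Rpl3l, a gene of heart and skeletal muscle, had a median of 0.321 CPM. Rps27l, a paralog of Rps27 that p53 can induce, was read at 11.2 CPM (range 8.14 to 14.9 CPM) and shared no window with another gene. Rpl39l passed the filter on low counts only in the 3 contrasts fitted on all 36 libraries, and Rpl39 and Rpl10l entered no test, so that 78 members entered all 10 tests.

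Short stretches around the RefSeq start site are given for members described here, as the TOP motif belongs to the start of the transcript and played no part in the symbol rule. RefSeq promoters on GRCm38.p6 were at hand for 61 of the 81 members. Lower case letters are the 15 bases before the annotated start, and capitals are the first 15 transcribed bases, 5′ to 3′ on the gene's strand. The first 4 sequences start with C and a pyrimidine run of at least 5 bases, and the last 3 do not.
Rps6 (chr4:86857353-86857382, minus strand): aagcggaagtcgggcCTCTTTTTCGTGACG
Rplp2 (chr7:141447636-141447665, plus strand): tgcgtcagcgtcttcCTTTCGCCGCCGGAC
Rps10 (chr17:27635230-27635259, minus strand): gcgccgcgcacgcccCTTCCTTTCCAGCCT
Rps27 (chr3:90213634-90213663, minus strand): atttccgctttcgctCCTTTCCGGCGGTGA
Rpl4 (chr9:64173372-64173401, plus strand): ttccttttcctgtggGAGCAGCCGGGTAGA
Rplp0 (chr5:115559452-115559481, plus strand): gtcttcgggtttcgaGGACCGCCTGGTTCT
Rpl37a (chr1:72711245-72711274, plus strand): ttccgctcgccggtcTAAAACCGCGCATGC

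A start of this kind, C followed by at least 4 further pyrimidines, was present at the annotated base in 13 of 61 members (21.3%) and in 673 of 27025 RefSeq promoters (2.49%). Anywhere close to the annotated start, such a stretch was present in 37 of 61 members (60.7%) and in 30.7% of all promoters. How exactly the starts are annotated was not tested. The motif CCGGAAG, the core bound by ETS factors such as GABP, was found on either strand of the 300 bases in 24 members (39.3%) and in 9.13% of all promoters. AAGATGGC, a core of YY1 sites, was found in 5 members (8.20%) and in 2.85% of all promoters. GGGCGG, the GC box, was found in 35 members (57.4%) and in 35.9% of all promoters. CCGGAAG and AAGATGGC can share the letters AAG where one runs into the other, and a match describes the sequence, not binding. Rps6, Rplp2 and Rps10 held CCGGAAG in this window, and Rps27 held AAGATGGC.

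The level of 6 members fell into separate bands over the mice. A gene was counted here when its sorted levels over 36 libraries, at a median of at least 1 CPM, held at least 2 gaps of 1.25-fold with 3 or more libraries on each side of each gap. This rule was chosen after the levels had been seen. It took 6 of 76 members, Rpl3, Rpl29, Rpl30, Rpl34, Rplp0 and Rps7, and 123 of 14506 genes (0.848%). No member had exactly 1 such gap, and 70 members had none.

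Rpl3, which lies beside the peptidyl transferase centre, was between 3.37 and 5.11 CPM in 14 mice, between 28.2 and 40.8 CPM in 15 and between 59.97 and 68.7 CPM in 7. Rpl29 was between 0.567 and 1.30 CPM in 7 mice, which a smaller gap split into 4 and 3, between 37.3 and 49.4 CPM in 26 and between 75.8 and 90.4 CPM in 3. Mice of 1 group lay in different bands, as in naive WT mice, where Rpl3 ran from 4.30 to 61.8 CPM. Rpl34 was between 1.26 and 2.51 CPM in 7 mice, all WT, between 17.9 and 24.4 CPM in 15 and between 31.0 and 47.3 CPM in 14. Between genotypes over the 3 time points Rpl34 did not reach an unadjusted p under 0.05 in edgeR. Rps7 was between 2.66 and 3.64 CPM in 10 mice, between 9.94 and 13.8 CPM in 19 and between 20.5 and 25.2 CPM in 7. Rpl30 was between 3.996 and 5.23 CPM in 10 mice, between 12.5 and 19.8 CPM in 19 and between 25.7 and 29.8 CPM in 7. Rplp0, which anchors the stalk and is often used as a reference gene in quantitative PCR, was between 48.6 and 58.0 CPM in 10 mice, between 103 and 127 CPM in 19 and between 160 and 178 CPM in 7. In each of the 6 genes the median of the middle band lay close to the midpoint of the outer bands, at 48.0% to 49.8% of the way from the low to the high median.

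**Figure D2:**
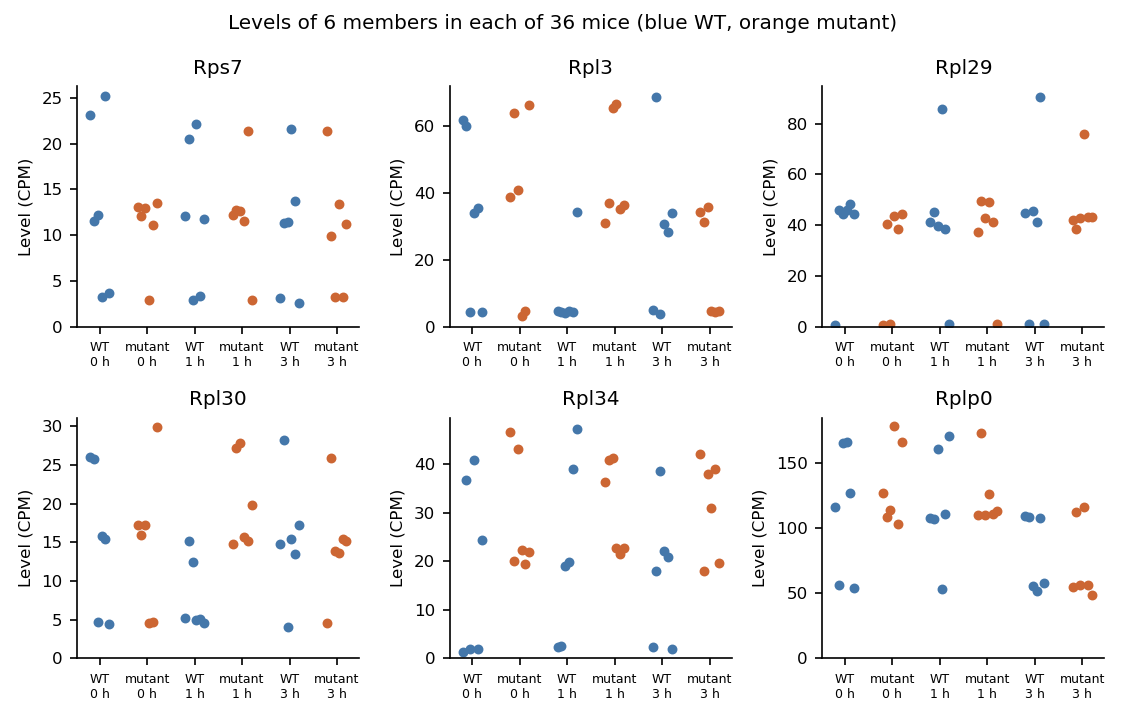
Level (CPM, linear axis from 0) of Rps7, Rpl3, Rpl29, Rpl30, Rpl34 and Rplp0 in each of the 36 mice, by group; each point is 1 mouse, blue for WT and orange for mutant. The points of each gene lie in bands with empty space between them, for instance 48.6 to 58.0, 103 to 127 and 160 to 178 CPM for Rplp0, and the low band of Rpl34 holds WT mice alone.

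These 6 genes lie on 5 chromosomes, Rpl3 at chr15:80077781-80083406, Rpl30 at chr15:34440505-34443276, Rpl29 at chr9:106428889-106431568, Rpl34 at chr3:130726827-130730398, Rplp0 at chr5:115559467-115563729 and Rps7 at chr12:28630847-28635953 (GRCm38). The 10 genes whose log2 level was most alike over the 36 libraries were named for each by Pearson's r, as a description. Of these 10, 9 lay on the member's own chromosome for Rpl29, Rpl34 and Rps7, and 8 for Rpl3, Rpl30 and Rplp0, within 25.9 Mb of it, and up to 2 were genes with no name or position here. The closest were Acp1 for Rps7 (r = 0.99), Bfsp2 for Rpl29 (r = 0.96), Cthrc1 for Rpl30 (r = 0.94), Tmed2 for Rplp0 (r = 0.92), Pnpla3 for Rpl3 (r = 0.90) and Arsj for Rpl34 (r = 0.82), each on the member's own chromosome. An unnamed gene stood ahead of Cthrc1 and Rpl34-ps1 ahead of Arsj. Genes on other chromosomes were also among them. Rpl34-ps1, which RefSeq places on chromosome 6 and lists as protein-coding despite its symbol, had r = −0.84 with Rpl34 and a level of 39.6 to 104 CPM. Gm6252, a pseudogene on chromosome 19, had r = 0.97 with Rps7, and Gm10698, a pseudogene on chromosome 9, had r = −0.83 with Rplp0. The mice were an F2 generation of 2 inbred strains, their genotypes at these loci are not analysed here, and the part of strain alleles or of reads shared between copies in the bands was not tested.

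Between genotypes, no member passed an adjusted p of 0.05 at any time point in edgeR's quasi-likelihood test with labelled sex as the only covariate. At 0 h no member had even an unadjusted p under 0.05 in either direction, beside 3.32% of 17336 genes higher and 2.83% lower, and 0% called. At 1 h 3 members were higher and 0 lower at this unadjusted p, beside 4.33% and 4.28% of 17261 genes and 0% called. At 3 h 3 were higher and 3 lower, beside 3.28% and 3.09% of 17394 genes and 0.0115% called. In the fit of genotype over the 3 time points, on 36 libraries, 0 members were higher and 1 lower of 79 tested, beside 7.38% and 7.67% of 18186 genes and 1.18% called. Both DESeq2 fits called Rpl3 and Rpl30 at 1 h, 2 of 78 members, and no member in the other 3 genotype comparisons. Over all genes at 1 h these fits called 100 of 17240 with sex and 105 of 17240 without a covariate. Medians of the members' log2 differences were −0.0077 at 0 h, 0.025 at 1 h, −0.025 at 3 h and 0.0024 over the 3 time points, and that of all genes lay between −0.0019 and 0.00049. With single libraries left out these medians ran from −0.046 to 0.020 at 0 h, from −0.0092 to 0.053 at 1 h and from −0.011 to 0.011 over the 3 time points, so that none of the 3 kept its sign. At 3 h they ran from −0.043 to −0.0096, with −0.042 without mutant 3 h female 2, whose counts go against its sex label. Fewer cells of a type and less RNA per cell cannot be told apart in tissue RNA.

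The members with the smallest p between genotypes at 1 h were among those with bands. Rpl30 was 5.23, 15.2, 12.5, 5.001, 5.09 and 4.51 CPM in the WT mice and 14.7, 27.1, 27.8, 15.7, 15.2 and 19.8 CPM in the mutants. Its log2 difference was 1.43 (standard error 0.27, adjusted p = 0.21 in edgeR), and 4 WT mice but no mutant lay in its low band. Rpl3 was 4.01 to 4.802 CPM in 5 WT mice and 34.4 CPM in the sixth, and 30.9 to 66.5 CPM in the mutants. Its log2 difference was 2.47 (standard error 0.62, adjusted p = 0.34 in edgeR), and it was called (1 member) when WT 1 h female 3, the WT mouse at 34.4 CPM, was left out. Rpl37a, a zinc-binding protein of the large subunit, lay between 6.15 and 7.37 CPM in the WT mice and between 7.27 and 7.94 CPM in the mutants, and the log2 difference was 0.17 (standard error 0.075, adjusted p = 0.55 in edgeR). The members at this unadjusted p numbered 2 to 8 higher and 0 to 1 lower when 1 library was left out, the most without mutant 1 h female 2 (8), mutant 1 h male 1 (6) and WT 1 h female 3 (5).

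At 0 h the smallest p-values belonged to Rpl32l, Rps27l and Rps4x. Rps4x, the X-linked protein of the small subunit, averaged 40.3 ± 2.41 CPM in naive WT mice and 43.5 ± 2.37 CPM in naive mutants (SD, n = 6 each), with a log2 difference of 0.10 (standard error 0.052, adjusted p = 0.83 in edgeR). At 3 h Rplp1 averaged 272 ± 11.5 CPM in the WT mice and 243 ± 25.8 CPM in the mutants, and the log2 difference was −0.16 (standard error 0.066, adjusted p = 0.77 in edgeR), and Rpl8 had one of −0.10 (standard error 0.041, adjusted p = 0.77 in edgeR). The Rplp1 difference was −0.10 without mutant 3 h female 1, which had 193 CPM. Rpl23 lay the other way with 0.14 (standard error 0.056, adjusted p = 0.77 in edgeR). Over the 3 time points Rps27l had a log2 difference of −0.15 (standard error 0.061, adjusted p = 0.22 in edgeR), with means of 12.7, 11.8 and 11.4 CPM in the WT mice and 11.1, 10.65 and 10.6 CPM in the mutants at 0, 1 and 3 h. Rpl23 and Rps4x followed with 0.063 (SE 0.034) and 0.050 (SE 0.027).

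**Figure D3:**
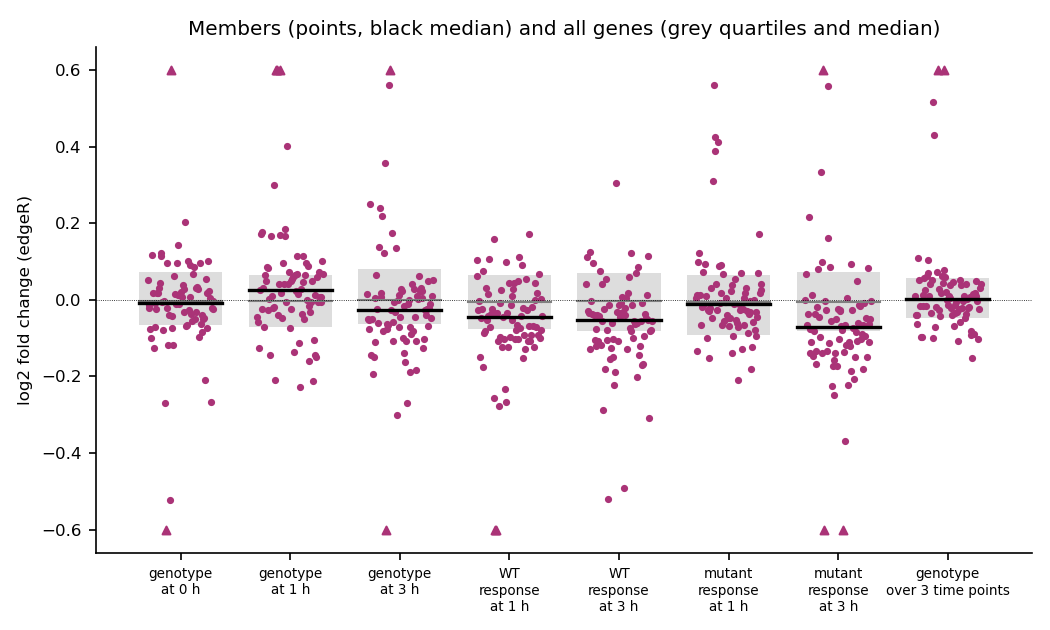
Log2 fold changes of the members from edgeR in the 3 genotype comparisons, the 4 responses to training and the genotype difference over 3 time points; purple points are members, black lines their medians, grey boxes and lines the quartiles and median of all genes tested, and triangles at 0.6 or −0.6 stand for members beyond that value. The black line lies below 0 in both responses at 3 h (−0.054 in WT and −0.070 in mutants) and near 0 in the genotype comparisons.

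After training, members were on the whole lower at 3 h than in naive mice of the same genotype, by small amounts and with none called. In WT the median log2 fold change of the 78 members at 3 h was −0.054, a difference of −3.65%, and 61 of 78 members (78.2%) lay below 0, beside a median of −0.0034 and 51.4% below 0 over 17438 genes. In mutants the median at 3 h was −0.070, a difference of −4.74%, and 64 of 78 (82.1%) lay below 0, beside −0.0051 and 52.1% over 17285 genes. Both medians stayed below 0 under each of the 11 other settings and each of the 12 fits that left out 1 library. The SD between mice of the members' median deviation was 0.038 in naive and 0.023 in 3 h WT mice, below the WT difference, and 0.095 in naive and 0.053 in 3 h mutants, of which the former exceeds the mutant difference. Both subunits took part, with medians of −0.056 and −0.040 for the small and the large subunit in WT and of −0.085 and −0.067 in mutants. The genotypes share no libraries in these 2 comparisons, and 54 members lay below 0 in both, while 7 lay above 0 in both. With 61 and 64 of 78 below 0 singly, most members would lie below 0 in both even if their directions were unrelated. The same count over all genes was not made, and members are not independent replicates.

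At 1 h the median was −0.044 in WT, with 55 of 78 members below 0, and −0.011 in mutants, with 46 of 78 below 0. The mutant median at 1 h turned sign with single libraries left out, running from −0.047 to 0.024, and was above 0 without mutant 0 h male 1, mutant 1 h male 1 or mutant 1 h female 2. The WT median at 1 h was −0.074 without WT 1 h female 3. The median deviation of the members from their own means over 36 libraries was spread widely within groups. In WT it ran from −0.025 to 0.083 at 0 h, from −0.12 to 0.089 at 1 h and from −0.052 to 0.013 at 3 h. In mutants it ran from −0.086 to 0.20 at 0 h, from −0.080 to 0.13 at 1 h and from −0.099 to 0.031 at 3 h. The groups overlapped in every comparison. Mutant 0 h male 1 was the highest of all with 0.20, and without it the mutant median at 3 h was −0.040 with 53 of 78 members below 0.

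**Figure D4:**
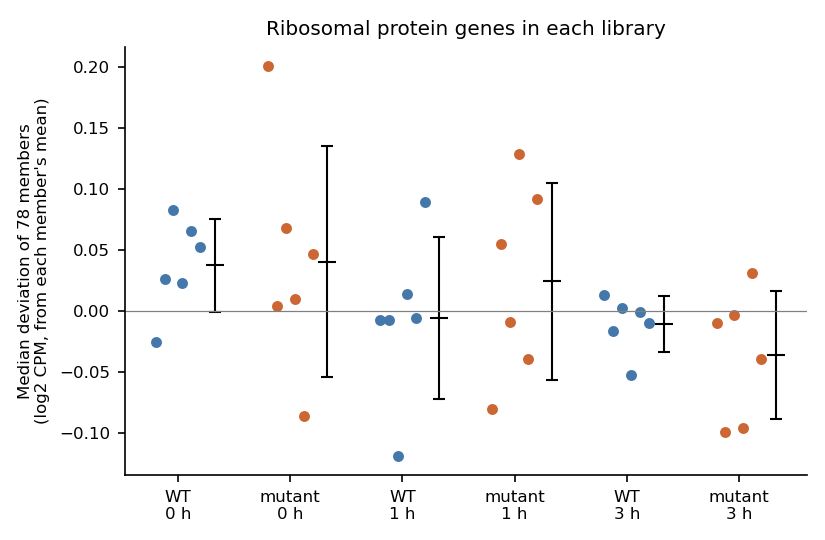
Median over 78 members of the deviation of log2 CPM from each member's mean over 36 libraries, for each mouse by group (blue WT, orange mutant); black bars are the mean and SD of 6 mice. The mice at 3 h lie between −0.099 and 0.031 and overlap the naive mice, which lie between −0.086 and 0.20.

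Counts at an unadjusted p under 0.05 also leaned to lower levels at 3 h. In WT 10 of 78 members (12.8%) were lower and 0 higher, beside 3.66% of genes lower, 4.57% higher and 0% called. In mutants 10 (12.8%) were lower and 1 higher, beside 3.68% lower, 4.89% higher and 0% called. Both DESeq2 fits called 1 member in WT at 3 h and none in the other 3 responses. Over all genes in WT at 3 h these fits called 62 of 16435 with sex and 51 of 14254 without a covariate. Rpl32 and Rpl37a were lower at this unadjusted p in both genotypes. The WT count of lower members was 4 without WT 0 h male 3 or WT 3 h female 1 and 6 without WT 3 h male 2, and ran from 4 to 13 over all libraries left out. The mutant count ran from 3 to 16. It was 3 without mutant 0 h female 3 or mutant 3 h male 2, 4 without mutant 0 h male 3, 5 without mutant 0 h male 1, 6 without mutant 0 h female 1 or mutant 3 h female 1, and 16 without mutant 3 h female 2, a library whose counts go against its sex label. At 1 h the WT comparison had 4 members lower and 0 higher, beside 2.44% lower, 2.92% higher and 0% called, and the mutant comparison had 0 and 0, beside 4.84% lower, 6.23% higher and 0.312% called.

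Rps24, which has variants in Diamond-Blackfan anaemia, averaged 105.5 ± 6.03 CPM in naive WT mice and 95.5 ± 2.76 CPM in WT mice at 3 h (SD, n = 6 each), with a log2 fold change of −0.14 (standard error 0.040, adjusted p = 0.42 in edgeR).

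Rpl37a had 7.39 to 8.74 CPM in naive WT mice, 6.15 to 7.37 CPM at 1 h and 6.10 to 7.66 CPM at 3 h. Among these WT groups those at 0 and 1 h did not overlap, as was the case for 0.0808% of all genes in this direction, and the log2 fold change was −0.23 (standard error 0.080, adjusted p = 0.92 in edgeR). The mutants had Rpl37a levels of 7.47 to 8.66 CPM in naive mice, 7.27 to 7.94 CPM at 1 h and 5.65 to 7.47 CPM at 3 h. The groups at 0 and 3 h did not overlap, beside 0.191% of all genes, and the log2 fold change was −0.25 (standard error 0.086, adjusted p = 0.45 in edgeR). Rpl32 had 101 ± 5.28 CPM in naive WT mice, 94.4 ± 5.46 CPM at 1 h and 94.3 ± 5.22 CPM at 3 h. Among the mutants it had 98.9 ± 6.38 CPM in naive mice, 97.2 ± 8.43 CPM at 1 h and 90.0 ± 6.28 CPM at 3 h.

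Rplp0 had the smallest p of the members in mutants at 3 h, with a log2 fold change of −0.83 (standard error 0.27, adjusted p = 0.45 in edgeR). This gene has bands, and 4 mutants at 3 h but no naive mutant lay in its low band. Rpl41, the smallest protein of the ribosome, had 130 ± 13.8 CPM in naive mutants and 115 ± 8.64 CPM at 3 h, with a log2 fold change of −0.17 (standard error 0.060, adjusted p = 0.45 in edgeR). Rpl27 was the 1 member higher at an unadjusted p under 0.05, with 0.33 (standard error 0.12, adjusted p = 0.45 in edgeR). In mutants at 1 h the smallest p-values belonged to Rps4x with −0.094 (standard error 0.049, adjusted p = 0.52 in edgeR), Rpl22 with −0.10 (standard error 0.060, adjusted p = 0.58 in edgeR) and Rpl32l with 0.41 (standard error 0.26, adjusted p = 0.60 in edgeR).

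The response to training did not pass the test of a difference between genotypes for any of 79 members. At 1 h 3 members had an unadjusted p under 0.05, all with a response higher in mutants, beside 3.73% of 18186 genes in either direction and 0% called. At 3 h there were 2, beside 1.76% in either direction and 0% called. The median log2 difference of responses was 0.038 at 1 h and −0.032 at 3 h. With single libraries left out it ran from 0.0092 to 0.074 at 1 h and from −0.050 to 0.0017 at 3 h, the latter value without mutant 0 h male 1. Both DESeq2 fits called no member in either comparison. Rpl32l, which RefSeq lists as protein-coding and GENCODE as a processed pseudogene, had the smallest p at 3 h, with a difference of 1.08 (SE 0.31, unadjusted p = 0.0013, edgeR adjusted p = 1.00) at a median level of 0.612 CPM. Rps10 had one of −0.37 (SE 0.17) at 3 h, with 9.09 CPM in mutant 3 h female 1 and 16.2 to 19.4 CPM in the other mutants at 3 h.

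Genes that work with the members were described from lists. Of 8 other genes of the cytosolic ribosome, among them Fau and Rack1, none was called in any comparison, and 7 of 8 in WT and 8 of 8 in mutants lay below 0 at 3 h. Of 14 translation factors with TOP mRNAs, such as Eef1a1 and Eef2, none was called, and 8 in WT and 12 in mutants lay below 0 at 3 h. Of 20 genes of the mTOR pathway and its control of TOP mRNAs, none was called, and Rptor, the substrate-binding partner of mTOR, had the smallest p between genotypes over the 3 time points (log2 difference 0.055, standard error 0.022, adjusted p = 0.21 in edgeR). At 3 h 12 of these 20 lay above 0 in each genotype. Of 32 genes of ribosome biogenesis, 1 was called, Utp14b, a testis-enriched copy of a factor of small subunit assembly. It was higher in mutants at 3 h and over the 3 time points and rose in mutants at 1 h. Over the 3 time points its log2 difference was 0.61 (standard error 0.071, adjusted p = 8.6e-06 in edgeR), and Ncl followed with 0.078 (standard error 0.028, adjusted p = 0.15 in edgeR). Genes linked to Kdm5b were not set apart in these lists. At 3 h 19 of the 32 lay above 0 in WT and 15 in mutants.

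At 3 h the nuclear genes of the mitochondria also lay mostly below 0. Of 81 tested genes of the respiratory chain, 66 lay below 0 in WT at 3 h (median −0.057) and 65 in mutants at 3 h (median −0.066), with none called. At 1 h 77 of 81 lay below 0 in WT (median −0.089) and 55 in mutants (median −0.020). Of 77 proteins of the mitochondrial ribosome, 54 in WT and 52 in mutants lay below 0 at 3 h, with medians of −0.028 and −0.042. In mutants at 1 h 35 of the 77 lay below 0, with a median of 0.0061. Between genotypes over the 3 time points 63 of 81 genes of the respiratory chain and 55 of 77 of the mitochondrial ribosome lay below 0, beside 39 of 79 members. Sdhc and Atp5o, of complex II and of ATP synthase, were lower in mutants over the 3 time points, with log2 differences of −0.12 (SE 0.030) and −0.11 (standard error 0.026, adjusted p = 0.029 in edgeR for both). Of 15 genes of the mitochondrial genome, 11 in WT and 12 in mutants lay below 0 at 3 h, with medians of −0.11 and −0.13. All 3 dentate granule markers and all 3 CA1 markers lay above 0 at 3 h in both genotypes, with medians of 0.16 and 0.21 (dentate granule) and of 0.10 and 0.096 (CA1) in WT and mutants. Neuron markers had medians of −0.052 in WT and −0.050 in mutants at 3 h, astrocyte markers −0.028 and −0.057, and endothelial markers −0.12 in both. Choroid plexus markers had medians of −0.24 in WT and 1.14 in mutants, striatum markers 0.040 and −0.43, and blood markers −0.033 and 0.45. CA3 markers had medians of 0.020 in WT and −0.039 in mutants, and forebrain pyramidal markers −0.098 and −0.013. Medians were −0.11 and −0.047 for microglia, −0.097 and 0.070 for oligodendrocytes, and −0.10 and 0.044 for thalamus markers. None of the mitochondrial genome genes or cell type markers named here was called in the 3 h responses, and their part in the levels of the members was not tested.

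Rps4l (chr6:148354656-148355596, plus strand, GRCm38), a retrocopy of Rps4x that lies within Tmtc1 and is annotated as a transcribed pseudogene, differed between genotypes over the 3 time points. Its level was 7.79, 12.9, 12.7, 15.5, 11.1 and 17.7 CPM in naive WT mice and 14.8, 8.70, 8.23, 8.75, 12.3 and 7.74 CPM in naive mutants, which overlapped. At 1 h it was 10.02, 17.0, 15.8, 11.5, 10.9 and 14.8 CPM in the WT mice and 7.61, 10.8, 7.95, 10.7, 10.002 and 8.30 CPM in the mutants. At 3 h it was 12.2, 14.7, 13.96, 15.2, 19.6 and 17.6 CPM in the WT mice and 9.67, 10.6, 9.57, 10.4, 12.2 and 11.3 CPM in the mutants. The groups at 3 h did not overlap (lowest WT 12.24 CPM, highest mutant 12.20 CPM), as was the case for 0.184% of all genes in this direction.

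Over the 3 time points the log2 difference of Rps4l was −0.48 (standard error 0.094, adjusted p = 0.0064 in edgeR). At single time points it was −0.35 (standard error 0.21, adjusted p = 0.86 in edgeR) at 0 h, −0.53 (standard error 0.14, adjusted p = 0.33 in edgeR) at 1 h and −0.54 (standard error 0.079, adjusted p = 0.069 in edgeR) at 3 h. Without mutant 3 h female 2, whose counts go against its sex label, the difference at 3 h was −0.55 (edgeR adjusted p = 0.033). Rps4l differed by 0.27 (standard error 0.14, adjusted p = 0.66 in edgeR) between naive and 3 h WT mice and by 0.076 (SE 0.15) between those mutants, and the responses did not pass the test of a difference at 1 h or 3 h (edgeR adjusted p = 1.00 for both). Its parent Rps4x had a genotype difference of 0.050 (standard error 0.027, adjusted p = 0.39 in edgeR), and 2.03% of the windows of Rps4l occur in another gene.

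**Figure D5:**
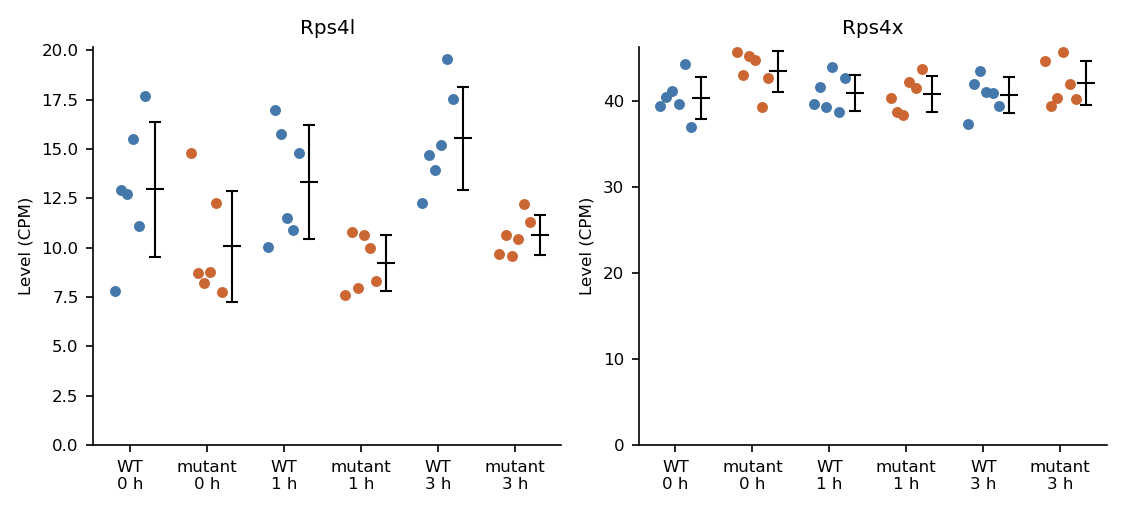
Level (CPM, linear axis from 0) of Rps4l and of its parent Rps4x in each mouse by group (blue WT, orange mutant); black bars are the mean and SD of 6 mice. Rps4l lies between 12.2 and 19.6 CPM in the WT mice and between 9.57 and 12.2 CPM in the mutants at 3 h, whereas Rps4x lies between 37.0 and 45.7 CPM in all groups.

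Within 1 Mb of Rps4l, 11 other genes were tested, and none passed the test of genotype over the 3 time points. The host gene Tmtc1 had a log2 difference of 0.014 (standard error 0.040, adjusted p = 0.92 in edgeR). The 10 genes most alike to Rps4l over 36 libraries lay on other chromosomes. They were led by Igf2bp1 on chromosome 11 (Pearson's r = −0.81), Renbp on chromosome X (r = −0.79) and Gal3st2b on chromosome 1 (r = 0.78), and the tenth, Faim2, had r = 0.74. The median log2 difference of the 5 choroid plexus markers was −2.03 at 0 h, −2.21 at 1 h, where 4 of 5 had an unadjusted p under 0.05, and −0.61 at 3 h, with all 5 below 0 at each time and none called. Their part in the level of Rps4l was not tested. Over the 3 time points the astrocyte marker Gja1 was higher in mutants (log2 difference 0.13, standard error 0.034, adjusted p = 0.043 in edgeR). All 5 oligodendrocyte markers and all 3 striatum markers lay above 0, with medians of 0.12 and 0.48 and none called. Their part was not tested either.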

How the data were processed

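Dorsal hippocampal polyadenylated RNA of 36 mice was analysed; the 8 hippocampus libraries of another cohort were not analysed here. The authors aligned 150-base read pairs with STAR 2.7.8a to mm10 and counted reads per gene with featureCounts 2.0.1, and the deposited values are raw counts. Annotation, strand and multi-mapping settings are not given in the sources used here. Values of 2 were 2.94 times as frequent as values of 1, and all 28 counts of Rpl39l above 0 were even, for which the cause was not tested. Of the genes, 25275 were named from RefSeq (GRCm38.p6), and the 1904 unnamed genes hold 1.28% of counts. A total of 30 members overlap small RNA genes and 18 overlap other genes.

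Counts were tested with edgeR 4.0.16 (quasi-likelihood F-test with robust dispersion, filterByExpr with a minimum count of 10, TMM, sex as labelled as covariate, R 4.3.3), with Benjamini-Hochberg adjustment over all genes and a threshold of 0.05, on 12 libraries per pairwise comparison and 36 for the other 3. DESeq2 1.42.0 was an alternative. The fits were tested on simulated data. No 2 libraries were identical, and each library is 1 mouse. Members and lists were chosen with earlier results of these data known. Named members were Rps4l, members called, the 3 with the smallest p in each test, the extremes of level, those failing the filter, and landmark proteins and paralogs. One promoter per gene, nearest the RefSeq 5′ end, was searched. Alternatives were RLE scaling, other filters, no sex covariate, sex as the counts show it, a replicate block, members left out of scaling, all libraries in 1 fit and each library left out. Some items that this rule names are not reported here.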

Additional observations from a re-analysis of the deposited data

Results flagged for a closer look

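Single mice stood apart from the other 5 of their group in 9 of 114 group comparisons (7.89%), made over 19 measures (Rps4l, members named by their p other than those not reported here, and the share of counts) and 6 groups by Dixon's ratio with a critical value of 0.625. Chance alone gives such a mouse in about 1 of 20 groups. Mutant 3 h female 1 was the lowest of its group for Rplp1 (193 CPM), Rpl41 (98.5 CPM) and Rps10 (9.09 CPM). WT 1 h male 3 was the lowest for Rpl41 (92.5 CPM), and this library also had the lowest share of counts on the members. Rps24 was highest in mutant 1 h female 1 (109 CPM), Rps27l in mutant 0 h male 1 (14.9 CPM) and Rpl32l in WT 3 h male 1 (0.809 CPM). Of the members with bands, Rpl3 was at 34.4 CPM in WT 1 h female 3 and Rplp0 at 173 CPM in mutant 1 h male 2. The cause was not tested for any of them.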

How the results depend on the processing

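The count of members called was 0 in all 10 tests and moved in 2 of them. Between genotypes at 1 h it was 2 with DESeq2 with sex, 2 with DESeq2 without a covariate, 1 with the replicate block (Rpl30), and 0 to 1 with single libraries left out. In WT at 3 h it was 1 with either DESeq2 fit. The cause was not tested. Over all genes, DESeq2 with and without sex called 16 and 23 genes between genotypes at 0 h (edgeR 0), 100 and 105 at 1 h (0), 51 and 41 at 3 h (2) and 543 with sex and fewer without over the 3 time points (214). For the responses they called 7 and 9 in WT at 1 h (0), 62 and 51 in WT at 3 h (0), 367 and 404 in mutants at 1 h (54) and 127 and 129 in mutants at 3 h (0). For the differences between responses they called 0 and 1 at 1 h (0) and 0 and 0 at 3 h (0).

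The median of the members moved by less than the SD between mice pooled over the 6 groups (0.068) under all alternatives, but its sign was not kept with single libraries left out between genotypes at 0 h, at 1 h and over the 3 time points, in mutants at 1 h and for the difference between responses at 3 h. Between genotypes at 0 h and over the 3 time points some of the other settings turned it too. Rps4l kept its direction between genotypes and, over the 3 time points, its side of the threshold in all of them. At 1 h it passed with DESeq2 with sex (−0.53) and without (−0.53). At 3 h it passed with DESeq2 with sex (−0.54) and without (−0.55) and without the 2 libraries of discordant sex (−0.55, an alternative added after the data were seen). With single libraries left out it ran from −0.58 to −0.49 at 3 h. Its responses, far from the threshold, changed sign with single libraries left out, from −0.072 to 0.15 in WT at 1 h, from −0.21 to 0.025 in mutants at 1 h and from −0.00081 to 0.24 in mutants at 3 h. In mutants at 3 h the members lower at an unadjusted p under 0.05 numbered 18 with sex as the counts show it and 16 without the discordant libraries, against 10.

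Same-numbered mice did not deviate together throughout. The correlation of their deviations was above 0.1 in 12 of 42 pairs (range −0.19 to 0.23), and 17 of 42 correlated best with their own number. With the replicate block, edgeR called 5 genes between genotypes at 1 h, 37 in mutants at 1 h and 230 over the 3 time points. Rpl39, Rpl39l and Rpl10l had too few counts for the filter in pairs of groups, and the cause was not tested.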

Other observations

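Outside the members with bands, relative spread over the 36 mice was widest among low members. The coefficient of variation was 111% for Rpl39l, 82.8% for Rpl39, 43.7% for Rpl3l and 25.7% for Rpl32l, all with a median under 1 CPM. Of members above that level, Rpl28 had 23.0% at a median of 5.10 CPM, Rpl13 had 19.9% and Rps2 had 16.7% at 136 CPM. Rpl4 (4.24%), Rpl7 (4.89%) and Rpl7a (5.17%) varied least. The median over the 78 members tested throughout was 10.3%, beside 9.40% for all genes with a median of at least 1 CPM. These genes were chosen after their values had been seen.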
